A study of Caenorhabditis elegans with 2 samples.

Results

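The cohesin genes of Caenorhabditis elegans were examined for binding of LIN-35, the worm's retinoblastoma-like pocket protein, near their 5' ends. The set holds 8 of the 19973 nuclear protein-coding genes: smc-1, smc-3, scc-3 and the kleisin genes scc-1, coh-1, rec-8, coh-3 and coh-4. They were taken as a named list by function, with earlier results of these data known, and no binding value entered the rule. A gene was called bound when the authors' thresholded list placed a peak summit within 500 bp of its annotated 5' end. Of the 8 genes, 2 were bound, smc-3 and scc-1 (25.0%), against 8.61% of all coding genes. The mitotic kleisins had 1 bound gene of 2 and the meiotic kleisins 0 of 3. A share of 8.61% would give fewer than 1 bound gene in either group, so 0 of 3 says little. Both bound peaks lay in divergent intergenic regions, nearer to another gene's 5' end. When each summit counted for its nearest coding gene alone, 0 of the 8 genes were bound, against 6.71% of coding genes. With 8 genes, the count carries no test.

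The chromatin came from young adult worms of strain YL521, with males and females pooled, and was fragmented by sonication. These worms carry unc-119(ed3) III and the transgene vrIs117, in which the pie-1 promoter drives LIN-35 tagged with GFP and FLAG, followed by the PUF-5 3'UTR and with unc-119(+) as rescue marker. The labels give 2 biological replicates of this 1 group, so no genotype, stage or treatment is compared. The pie-1 promoter is a germline promoter and the listed antibody is against lin-35, so tagged and native LIN-35 cannot be told apart here. In whole animals, strong binding in few cells and weak binding in many cells cannot be told apart, nor can germline and somatic nuclei.

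Cohesin is a ring that holds sister chromatids together and folds chromosomes into loops. The SMC proteins SMC-1 and SMC-3 form a heterodimer, a kleisin closes the ring by bridging their heads, and SCC-3 binds the kleisin. The kleisin sets what the ring does: SCC-1 is the mitotic kleisin of proliferating cells and COH-1 a kleisin of somatic tissues, grouped here as the mitotic kleisins. REC-8 and the closely related pair COH-3 and COH-4 act in meiosis, where they load on germline chromosomes and carry cohesion and the chromosome axis. LIN-35 is a subunit of the DREAM complex, known for holding cell cycle genes at low expression. DREAM touches DNA through its E2F and DP subunits and through LIN-54, which reads the cell cycle genes homology region, or CHR.

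The authors deposited 4 peak lists in genome build ce11. The thresholded list held 2712 peaks and was the 2712 strongest peaks of the pooled list, which held 30000. The replicate 1 list held 30000 peaks and the replicate 2 list 26192. The last 3 are relaxed lists, made to hold background as well as peaks. Rank 1 is the strongest peak of a list, and signal is the authors' value per peak, on a scale the labels do not state. Read depth is not known from these files, and the control chromatin was not analysed here.

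Among the core subunits, SMC-3 was the bound one. The pooled and thresholded lists placed a peak at chrIII:11290591-11290886 (ce11), with its summit 165 bp upstream of the smc-3 5' end, a signal of 47.68 and rank 2264. The smc-3 gene (WBGene00004873) lies at chrIII:11290904-11306247 on the plus strand, and the peak was intergenic. Replicate 1 had its strongest summit 108 bp upstream, with a signal of 19.85 and rank 2599, and replicate 2 had it 165 bp upstream, with a signal of 31.30 and rank 2214. Both replicates therefore held the smc-3 summit among their 2712 strongest peaks, 57 bp apart. Over the 1655 bound genes with a summit in both replicates, that distance had a median of 25 bp and an upper quartile of 56 bp. The smc-3 summit was a weak member of the bound set: 8.67% of the 1719 bound coding genes had a lower signal. The median over those genes was 86.10, with quartiles of 58.23 and 140.6.

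The smc-3 summit is shared. The divergent genes mib-1, which encodes a Mind bomb type ubiquitin ligase, and gly-9, which encodes a glycosyltransferase, begin 228 bp and 324 bp upstream of smc-3. The pooled and replicate 2 summits lay 63 bp from the mib-1 5' end, nearer than to smc-3, while the replicate 1 summit was nearest to smc-3. From positions alone the peak cannot be assigned to smc-3 rather than its neighbours. The 101 bases around the pooled summit (chrIII:11290689-11290789, ce11, plus strand, 215 to 115 bp upstream of smc-3) are shown because they carry the only bound site at an SMC subunit of the ring. Capitals mark CHR matches.

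smc-3: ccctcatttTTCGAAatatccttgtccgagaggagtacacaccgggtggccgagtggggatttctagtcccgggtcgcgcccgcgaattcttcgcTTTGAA

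SCC-3, the kleisin partner, had no thresholded and no pooled summit near its 5' end. The scc-3 gene (WBGene00004738) is at chrV:12763945-12767933, plus strand, and its nearest pooled summit was 19516 bp upstream. Replicate 1 alone had a summit 267 bp upstream, with a signal of 18.08 and rank 3035, just outside the 2712 strongest peaks of that replicate. A summit in replicate 1 with none in replicate 2 occurred at 10.8% of coding genes. The divergent abcf-1, encoding an ABC-F ATPase, starts 570 bp upstream of scc-3, and the summit was nearest to scc-3.

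SMC-1, the other arm of the heterodimer, was the member with the least signal at its 5' end. The annotation lists it as him-1 (WBGene00001860) on the minus strand of chromosome I, and RefSeq names its product as structural maintenance of chromosomes protein 1. No list, relaxed lists included, placed a summit within 500 bp. The nearest thresholded summit was 9982 bp upstream and the nearest pooled one 1354 bp upstream, where its signal was 9.544 and its rank 18454. Replicate 2 had a weak summit 514 bp upstream, with a signal of 3.905, in an untranslated exon of mzt-1, whose product recruits gamma-tubulin. The mzt-1 gene lies on the same strand 107 bp before smc-1. The body of smc-1 held 4 pooled summits and 3 in each replicate list, and no thresholded one.

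The core subunits thus had support in both replicates for smc-3, in replicate 1 for scc-3 and in neither for smc-1. Over all 8 genes the pooled relaxed list had a summit at 4, smc-3, scc-1, coh-3 and coh-4 (50.0%, against 29.2% of coding genes). The relaxed list of replicate 1 had one at 6 (75.0%, against 31.1%) and that of replicate 2 at 5 (62.5%, against 28.02%). A relaxed summit was thus common over the genome, and one that stands only in a relaxed list is not called binding here.

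**Figure D1:**
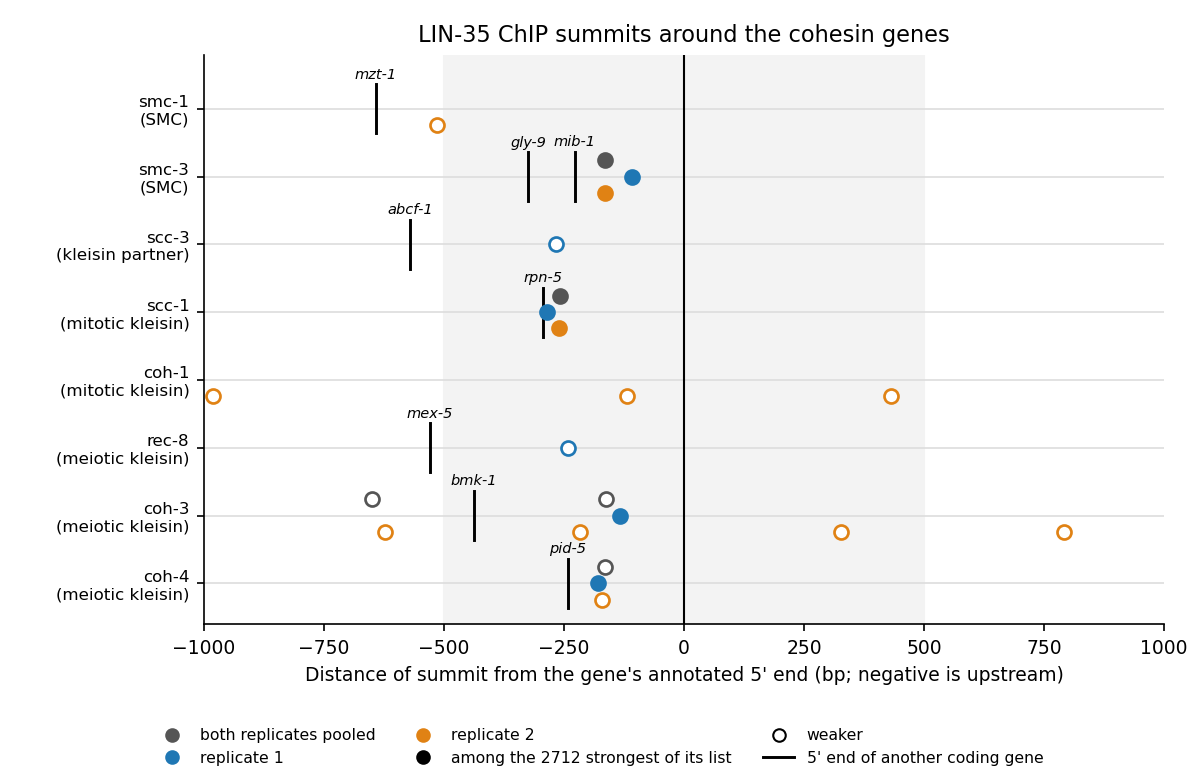
Distance of each summit from the annotated 5' end of the 8 cohesin genes, in bp along the gene's strand, with pooled summits in grey, replicate 1 in blue and replicate 2 in orange. Filled points are among the 2712 strongest peaks of their list, vertical bars are 5' ends of other coding genes, and the shaded band is 500 bp on each side. All 3 summits are filled for smc-3 and scc-1, and the replicate 1 summit alone for coh-3 and coh-4.

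Of the mitotic kleisins, scc-1 had the strongest LIN-35 summit of any cohesin gene in the pooled and replicate 2 lists, and coh-3 ranked just above it in replicate 1. The peak at chrII:4698388-4698530 (ce11) had its summit 259 bp upstream of the scc-1 5' end, a signal of 128.2 and rank 531 of 2712. The scc-1 gene (WBGene00004737) is at chrII:4698721-4700994 on the plus strand. Replicate 1 had a summit 286 bp upstream, with a signal of 31.14 and rank 1193, and replicate 2 one 261 bp upstream, with a signal of 91.69 and rank 449. Both summits were well inside the 2712 strongest of their replicate and lay 25 bp apart, which equals the median of 25 bp over the 1655 thresholded genes with a summit in both replicates. Of the bound coding genes, 70.7% had a lower signal than scc-1. Its pooled peak was also narrow, 143 bp wide against a median of 296 bp in the thresholded list.

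The scc-1 summit lies in a short divergent promoter. The rpn-5 gene, which encodes a lid subunit of the proteasome, starts 294 bp upstream of scc-1 on the other strand. The summit was 35 bp from the rpn-5 5' end in the pooled list, 8 bp in replicate 1 and 33 bp in replicate 2, so rpn-5 was the nearer gene in each list. The 85 bases around the pooled summit that lie in no annotated exon (chrII:4698428-4698512, ce11, plus strand, 293 to 209 bp upstream of scc-1) are shown as the strongest pooled site at a cohesin gene. Capitals mark the CHR match.

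scc-1: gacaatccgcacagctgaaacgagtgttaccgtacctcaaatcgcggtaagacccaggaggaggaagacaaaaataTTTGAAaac

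COH-1, the other mitotic kleisin, was not bound. The coh-1 gene (WBGene00000591) is at chrX:7465193-7475018, minus strand, with no other coding 5' end within 1000 bp. Neither the thresholded nor the pooled list had a summit within 500 bp, and replicate 1 had none. Replicate 2 had a summit 119 bp upstream, with a signal of 8.762 and rank 10772, and a weaker one 432 bp inside the first part of the gene, in an intron, with a signal of 3.759 and rank 20643. A summit in replicate 2 with none in replicate 1 occurred at 7.77% of coding genes. The gene body of coh-1 held 6 summits in replicate 2 and 0 in each other list.

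None of the 3 meiotic kleisins had a thresholded summit, and rec-8 had no pooled one near its 5' end either. The rec-8 gene (WBGene00004333), at chrIV:13349122-13353193 on the minus strand, had a summit in replicate 1 alone, 241 bp upstream, with a signal of 12.62 and rank 5642. Its nearest pooled summit was 15698 bp upstream. The divergent mex-5 gene, which encodes a zinc finger protein of embryonic polarity, starts 530 bp upstream. The rec-8 summit stood within the strongest 18.8% of the replicate 1 list, and replicate 2 offered no summit to set beside it. Of all coding genes, 10.8% had a summit in replicate 1 and none in replicate 2.

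COH-3 stood just outside the threshold and COH-4 farther out. The coh-3 gene (WBGene00000592, chrV:14457422-14460141, plus strand) had a pooled summit 162 bp upstream with a signal of 38.95 and rank 3017, and coh-4 (WBGene00021560, chrV:4169912-4175640, minus strand) had one 164 bp upstream with a signal of 35.40 and rank 3497. The weakest thresholded peak had a signal of 41.88, so coh-3 reached 93.0% and coh-4 84.5% of it. Between the threshold and coh-3 lay 304 pooled peaks, and 784 lay between it and coh-4. These ranks held the strongest summits of 114 and 290 coding genes, respectively. On the other side of the threshold smc-3, at 47.68, is the weakest bound member.

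The replicates disagreed on coh-3 and coh-4. In replicate 1, coh-3 had a summit 134 bp upstream with a signal of 31.24 and rank 1182, and coh-4 one 180 bp upstream with a signal of 29.83 and rank 1303. These ranks are on either side of the rank of 1193 that scc-1 had in the same list. In replicate 2, the strongest summit of coh-3 was 217 bp upstream with a signal of 9.108 and rank 10384, and that of coh-4 was 170 bp upstream with a signal of 5.619 and rank 15883, while scc-1 had rank 449. A second coh-3 summit in replicate 2, with a signal of 6.557 and rank 14062, was 328 bp inside the gene in a coding exon. Both genes thus stood near scc-1 in replicate 1 and far below it in replicate 2.

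The gap between the replicates at coh-3 and coh-4 can be read against other genes. Among the 4045 coding genes with a summit in both replicates, the rank in replicate 2 divided by the rank in replicate 1 had a median of 0.910 and quartiles of 0.486 and 1.64. The quotient was 0.376 for scc-1 and 0.852 for smc-3, against 8.79 for coh-3 and 12.2 for coh-4. The lists differ in length, so the quotient describes each gene's place and is no measure of change. A summit among the 2712 strongest of replicate 1, with none among those of replicate 2 and none in the thresholded list, was seen at 2 of the 8 cohesin genes, coh-3 and coh-4, against 1.29% of coding genes. The pattern was not planned in advance and follows what the ranks of coh-3 and coh-4 had shown, so their count is no test. Both are meiotic kleisins and near copies of each other, so they are not 2 separate cases. The regulator evl-14 met the same rule, with ranks of 1921 and 4669 in replicates 1 and 2 (1 of 7 regulators). Its strongest summits in the replicates lay much farther apart than those of coh-3 or coh-4. The evl-14 ranks thus belong to different summits and need not describe the same site. The cause of the pattern was not tested.

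The authors' q-values have a ceiling in each list, which many peaks share. In the pooled list 10.1% of peaks shared the highest -log10 q-value of 3.782, among them those of scc-1 and smc-3 and also that of coh-3, while coh-4 had 3.368. In replicate 1 all 6 cohesin genes with a summit were at the ceiling of 3.777, which 29.9% of peaks reached. In replicate 2 scc-1 and smc-3 were at the ceiling of 4.131, against 3.379 for coh-1, 3.363 for coh-3 and 2.830 for coh-4. The q-values thus set scc-1 above the other kleisins in replicate 2, and were tied in replicate 1 for the 4 kleisins with a summit there.

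**Figure D2:**
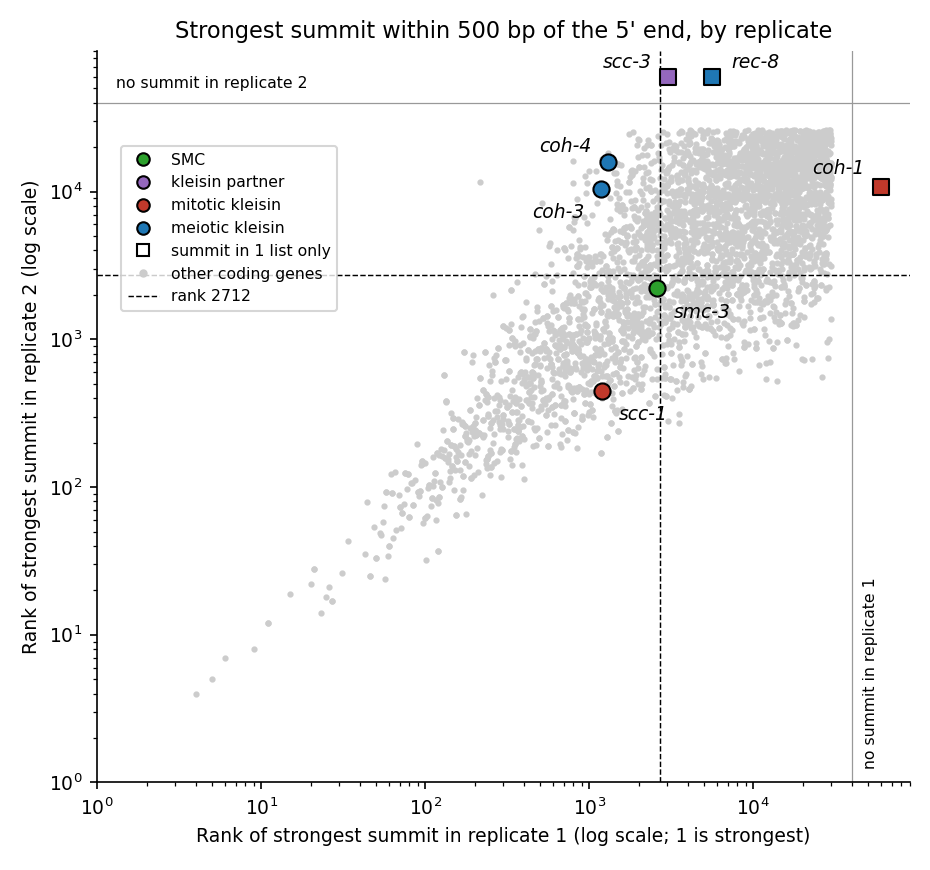
Rank of the strongest summit within 500 bp of the 5' end in replicate 1 (x axis) and replicate 2 (y axis), both on log scales with rank 1 strongest. Each grey point is 1 of the coding genes with a summit in both lists, coloured circles are cohesin genes by class, squares are genes with a summit in 1 replicate list, and dashed lines mark rank 2712. The genes scc-1 and smc-3 lie inside both dashed lines, while coh-3 and coh-4 lie inside that of replicate 1 at ranks 1182 and 1303 but at 10384 and 15883 in replicate 2.

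Counting the strongest 2712 peaks of each replicate restates these ranks as counts, which differ between the replicates. In replicate 1 these peaks placed a summit within 500 bp of 4 of 8 cohesin genes (7.75% of coding genes). Among the kleisins they reached 1 of 2 mitotic and 2 of 3 meiotic genes. In replicate 2 the 2712 strongest peaks reached 2 of 8 (8.47% of coding genes), with 1 of 2 mitotic and 0 of 3 meiotic kleisins. Both smc-3 and scc-1 were in the thresholded list and among the strongest of each replicate, as were 5.49% of coding genes. When the pooled list was extended to its 4068 strongest peaks, a number chosen after the values were seen, coh-3 and coh-4 joined them, giving 4 of 8 against 10.9% of coding genes. By replicate 1 or the extended list 2 of 3 meiotic kleisins thus had such a summit, and by replicate 2 or the thresholded list 0. The mitotic kleisins had 1 of 2 in each. The 2 meiotic kleisins are coh-3 and coh-4, near copies of each other and not 2 separate cases. Neither has a thresholded summit, so neither is called bound here.

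**Figure D3:**
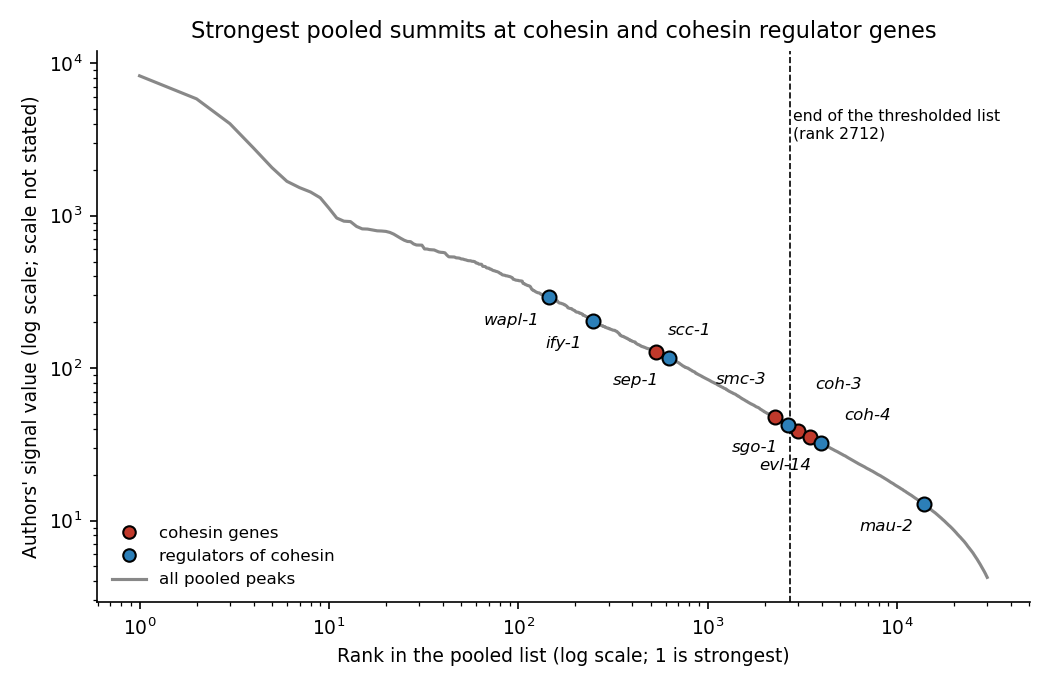
Signal of the strongest pooled summit within 500 bp of the 5' end against its rank in the pooled list, both on log scales, for cohesin genes (red) and regulators of cohesin (blue) that have one, over the curve of all pooled peaks. The dashed line is the end of the thresholded list at rank 2712. The genes coh-3 (38.95) and coh-4 (35.40) lie past it, and wapl-1 (290.6), ify-1 (204.3) and scc-1 (128.2) far inside it.

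COH-3 and COH-4 are near copies in protein sequence. The annotated proteins have 607 and 609 residues and were identical at 86.9% of 604 aligned residues. Every other pair of kleisins was identical at between 22.45% (coh-1 with coh-3) and 32.36% (scc-1 with coh-1) of aligned residues, and SMC-1 with SMC-3 at 24.19%. REC-8 was nearer to COH-3, at 31.76%, than to SCC-1, at 24.58%. The longest run of identical coding bases in coh-3 and coh-4 was 50 bp, and in the 500 bp before their 5' ends it was 18 bp. How the authors treated reads that match several places is not given in the sources used here, so a share of reads moving between the copies was not tested.

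The regions under the coh-3 and coh-4 summits were alike as well. Of the 201 bases centred on each pooled summit, 154 could be aligned with 131 identical (85.1%), and no other pair of cohesin gene windows aligned over more than 48 bases. Both genes have a divergent neighbour. The bmk-1 gene, which encodes a kinesin-5 motor of the spindle, starts 438 bp from coh-3, and pid-5, which encodes a piRNA pathway protein, starts 242 bp from coh-4. The pooled coh-3 summit was nearest to coh-3, whereas the pooled coh-4 summit was 78 bp from pid-5 and so nearer to it.

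The windows of all 3 meiotic kleisins shared a word of 13 bases, GTGCGCCTTTAAA, on the strand of the gene. Its first base lay 180 bp upstream of rec-8, 141 bp upstream of coh-3 and 150 bp upstream of coh-4. The word was found by comparing the windows with each other, so its presence there is no test. On either strand it was in 7 of the 1354 windows of the same length at thresholded summits near coding genes (0.517%) and in 39 of the 19973 windows just upstream of coding genes (0.195%). Of those 39 genes 5 were bound (12.8%, against 8.61% of coding genes). The 39 include rec-8, coh-3 and coh-4, from which the word was taken, and no other gene on the lists used here. Those lists are short, so the absence of others says little. A word of 8 bases, GTACGGTA, was near it in all 3 and also, on the other strand, in the scc-1 window. That word was in 3.10% of summit windows and 0.866% of upstream windows. Other words of 8 bases were also shared by 4 cohesin windows, and were in 2.08% to 16.1% of upstream windows. GTACGGTA was picked as the rarest of them upstream, so its low share and the rarity of the word pair partly follow from that choice. No window at a thresholded summit held both words, and 6 upstream windows did, those of coh-3, coh-4, pid-5, C53A3.3, Y65A5A.2 and F15D4.2, none of them a bound gene. The pid-5 window lies in the same intergenic region as that of coh-4. Upstream windows covered the 201 bases before the 5' end, so that of rec-8 could not hold its 8-base word, which starts 220 bp upstream.

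The bases around the strongest summits of the meiotic kleisins that lie in no annotated exon are shown so that the shared words, in capitals, can be seen in place. The windows are chrIV:13353334-13353534 (minus strand, 341 to 141 bp upstream of rec-8, around the replicate 1 summit), chrV:14457160-14457360 (plus strand, 262 to 62 bp upstream of coh-3) and chrV:4175704-4175881 (minus strand, 241 to 64 bp upstream of coh-4), all in ce11 and read along the gene's strand. In rec-8 the 8-base word comes first, 32 bases before the 13-base word, and in coh-3 and coh-4 it comes second, after a gap of 6 bases.

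rec-8: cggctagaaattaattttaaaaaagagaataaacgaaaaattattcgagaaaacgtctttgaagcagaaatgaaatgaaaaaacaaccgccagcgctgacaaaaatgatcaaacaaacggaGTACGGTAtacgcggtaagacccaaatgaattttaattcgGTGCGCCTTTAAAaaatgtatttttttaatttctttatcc

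coh-3: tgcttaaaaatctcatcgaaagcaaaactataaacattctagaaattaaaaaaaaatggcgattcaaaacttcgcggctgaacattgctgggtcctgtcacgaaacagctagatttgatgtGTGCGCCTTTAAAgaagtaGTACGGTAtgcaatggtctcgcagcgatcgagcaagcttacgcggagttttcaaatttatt

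coh-4: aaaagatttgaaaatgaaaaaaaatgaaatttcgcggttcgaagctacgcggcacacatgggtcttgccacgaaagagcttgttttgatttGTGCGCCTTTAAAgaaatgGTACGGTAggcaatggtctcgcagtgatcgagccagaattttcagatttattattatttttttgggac

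A mitotic and a meiotic kleisin also shared a word. The windows of scc-1 and rec-8 both held the 14 bases CGCGGTAAGACCCA, starting 251 bp upstream of scc-1 and 210 bp upstream of rec-8. It was in 1 of the 1354 summit windows, that of scc-1 itself, and in 1 of the 19973 upstream windows, that of rpn-5, which lies in the same divergent region. Upstream windows covered only the 201 bases before each 5' end. Those of scc-1 and rec-8 could thus not hold the word, and the upstream count is not on the same footing. The window of coh-3 and that of coh-4 shared a longer run around the 13-base word, TGTGCGCCTTTAAAGAA.

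Letters of known DREAM sites were searched in the 7 cohesin windows of 201 bases, on both strands. The E2F letters searched were TTCCCGC or TTCGCGC or TTGCCGC or TTGGCGC, and the CHR letters TTTGAA or TTCGAA, the second of which reads the same on both strands and overlaps itself there. E2F letters were in 0 of the 7 cohesin windows, against 24.7% of summit windows at coding genes and 6.31% of upstream windows. CHR letters were in 7 of 7 cohesin windows, against 55.2% of summit windows and 56.2% of upstream windows. The windows ranged from 32.3% GC at rec-8 to 42.3% at smc-3, beside means of 40.2% at summits and 33.65% upstream. Of the 7 windows, those of smc-3 and scc-1 are at thresholded summits, those of coh-3 and coh-4 at pooled relaxed summits, and those of scc-3, coh-1 and rec-8 at summits of 1 replicate. No match says only that these letters are not in these windows.

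**Figure D4:**
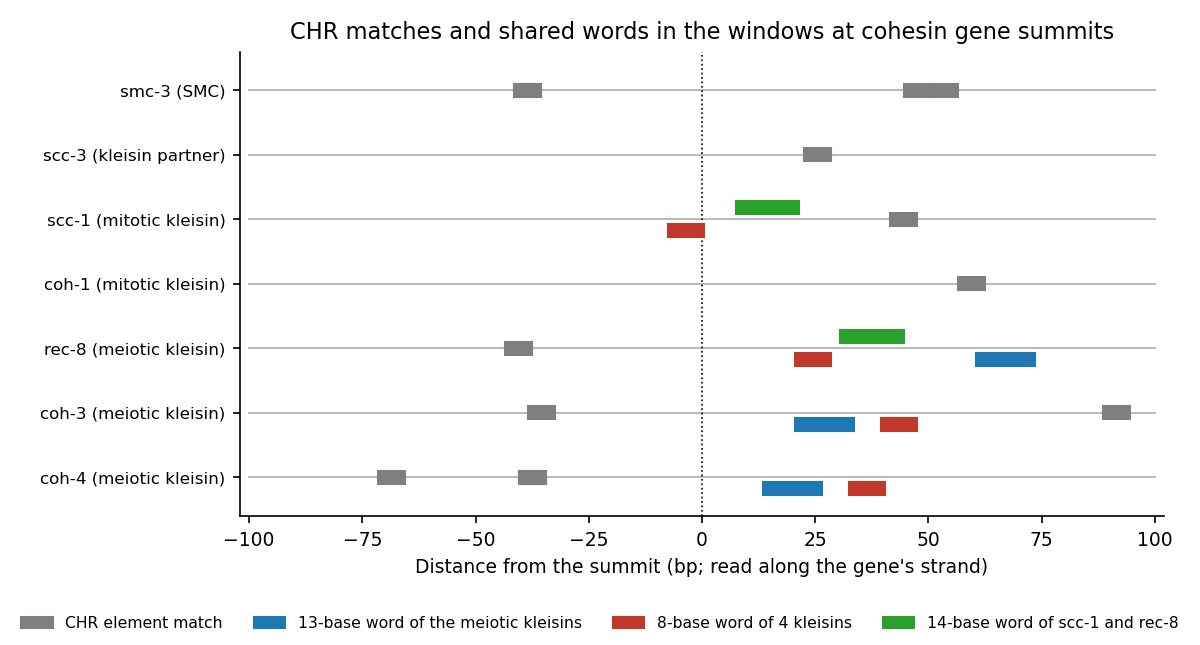
Positions of CHR matches (grey) and of the shared words of 13 bases (blue), 8 bases (red) and 14 bases (green) within 100 bp of the strongest summit in the 7 cohesin genes that have one, in bp along the gene's strand. The 13-base word lies 14 to 61 bp after the summit in rec-8, coh-3 and coh-4, and every gene has at least 1 CHR match.

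Some regulators of the ring had stronger pooled summits than any cohesin gene. Of 7 regulators found in the annotation, 4 had a thresholded summit: wapl-1, ify-1, sep-1 and sgo-1 (57.1%, against 8.61% of coding genes). WAPL-1 releases cohesin from chromatin, and its gene had the strongest summit of the list, 167 bp upstream, with a signal of 290.6, rank 146, and ranks of 189 and 115 in replicates 1 and 2. The wapl-1 peak also lies within 500 bp of htz-1, a histone variant gene, but was nearest to wapl-1. Securin, encoded by ify-1, and separase, encoded by sep-1, control the cleavage of the kleisin at anaphase. The ify-1 summit was 167 bp upstream, with a signal of 204.3 and rank 247, and is shared with the ribosomal protein gene rpl-22. The sep-1 summit was 426 bp upstream, with a signal of 115.8 and rank 629, and lay nearer to nefr-1. The gene sgo-1, whose product is the worm homologue of shugoshin, a protector of cohesin in yeast and mammals, had a weak summit 435 bp upstream, with a signal of 42.51 and rank 2657, and it ranked 3653 and 6800 in replicates 1 and 2, outside the strongest 2712 of either.

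The remaining regulators act in loading and maintenance. The PDS5 gene evl-14 had a pooled signal of 32.24 at rank 3992, and the loader gene mau-2 one of 12.82 at rank 13841. The other loader gene, scc-2, had no summit within 500 bp of its gene's 5' end in any list, but it had a thresholded one within 500 bp of the 5' end of another annotated transcript, which would make 5 of 7 regulators bound. The wapl-1 and ify-1 signals were above the scc-1 signal of 128.2, and the other regulators were below it.

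Of 12 genes of the condensins and the SMC-5/6 complex, 4 were bound (33.3%, against 8.61% of coding genes): hcp-6 with a signal of 271.7, mix-1 with 132.3, smc-5 with 88.64 and smc-4 with 82.08. HCP-6 is a condensin II subunit, and SMC-4 and MIX-1 are among the SMC proteins of the condensins. The condensin gene dpy-27 was not bound. The hcp-6 summit was nearer to let-630 and the smc-4 summit nearer to F35G12.7, while the mix-1 summit also lay within 500 bp of R06F6.12. Of 9 genes of the meiotic axis and the synaptonemal complex, the structures that the meiotic kleisins help to build, 0 were bound, where a share of 8.61% would give fewer than 1 gene, so the count says little. The syp-4 gene came nearest with a pooled signal of 35.72 at rank 3450. None of these differences between lists was tested.

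**Figure D5:**
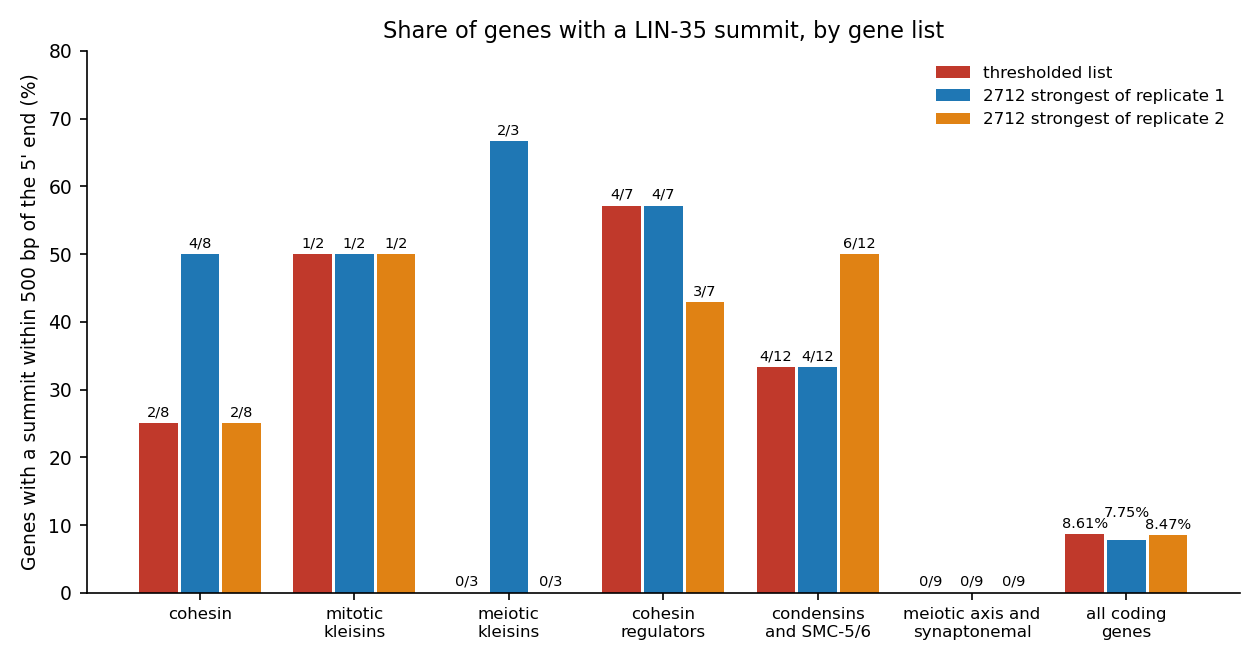
Percentage of genes with a summit within 500 bp of the 5' end, from 0, in the thresholded list (red) and in the 2712 strongest peaks of replicate 1 (blue) and replicate 2 (orange), for each gene list and for all coding genes. Labels give genes with such a summit over listed genes. The meiotic kleisins stand at 2 of 3 in replicate 1 and at 0 of 3 in the other lists, and the meiotic axis genes at 0 of 9 throughout.

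The genes most like the bound cohesin genes were those nearest in the log10 of their ranks in the 2 replicates. For smc-3, among 1652 other bound genes, these were C46C2.6, with ranks of 2583 and 2175 in replicates 1 and 2 and a signal of 53.21, and ZK180.8, with ranks of 2607 and 2140 and a signal of 47.69, at distances of 0.00817 and 0.0148 from smc-3. For scc-1, among 1653, they were sar-1, which encodes a small GTPase of the secretory pathway, with ranks of 1214 and 468 and a signal of 113.4, and F22G12.4, with ranks of 1091 and 435 and a signal of 124.2, at distances of 0.0195 and 0.0412 from scc-1.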

How the data were processed

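LIN-35 ChIP-seq peak lists from 2 biological replicates of 1 group were used in build ce11, and lists in ce10 were not used. Per the deposited text indexes, the authors called relaxed peaks from each replicate and from both pooled, with a control, and derived the thresholded list from these; no source used here names the aligner or peak caller. The authors deposited a signal value, a −log10 q-value and a summit offset per peak, so depth is unknown and no interval that needs counts is given. Summits were matched to 5' ends of Ensembl release 115 genes (WBcel235, the same assembly), with a limit of 500 bp, in Python 3.11.15 with numpy 2.4.6, pandas 2.3.3 and Biopython 1.88, and figures were drawn with matplotlib 3.10.9. The matching was tested on simulated data. Sequences were read from the RefSeq genome of that build, proteins were translated from the annotation and aligned globally, and windows aligned locally.

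The genes and lists were chosen with earlier results of these data known, and the shared words after the windows were seen. The pattern of a gene strong in replicate 1 alone was not planned in advance. Named genes are the members, bound genes of the 3 related lists, genes sharing a member's thresholded summit, and the pair nearest in replicate ranks to each bound member. Neighbours of unbound members, evl-14, mau-2, scc-2, dpy-27, syp-4 and genes holding the shared words were named after their values were seen. Of 8 listed regulators, F08F8.4 was not matched. No test was run, since 1 group and 8 genes allow none, and 2 replicates measure only the spread between these samples. Alternatives varied the distance, list length, replicate, choice of gene per summit and transcript 5' end.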

Additional observations from a re-analysis of the deposited data

How the results depend on the processing

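The bound count of cohesin genes was 2 of 8, and also 2 with a limit of 1000 bp, the 5' end of any transcript, or replicate 1 left out. It was 1 (smc-3) at 200 bp, 1 (scc-1) in the 1356 strongest thresholded peaks, 0 when each summit counted for its nearest coding 5' end alone, and 4 in the pooled list extended 1.5 times, an alternative chosen after seeing the data. Leaving out a replicate gave 2 to 4. The mitotic kleisins had 1, and 0 at 200 bp or with the nearest 5' end alone. The meiotic kleisins had 0, and 2 in the extended list; leaving out a replicate gave 0 to 2. The regulators had 4, 2 at 200 bp, 5 with the 5' end of any transcript (scc-2 added), and 3 to 4 with a replicate left out. The condensin and SMC-5/6 genes had 4, 2 with the nearest 5' end alone, and 4 to 6 with a replicate left out. The meiotic axis genes had 0, and 1 in the extended list. Of all coding genes 1719 were bound, 897 at 200 bp, 1103 in the 1356 strongest, and 1547 to 1691 with a replicate left out. Summit offsets kept their sign in both replicate lists; smc-1, scc-3, coh-1 and rec-8 have no pooled summit to vary. The causes were not tested. No paired analysis was possible because there is 1 group and no test. Unknown depth and 2 replicates limit all values.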
